A study of Arabidopsis thaliana with 40 samples.

Results

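Transcripts of 8 protein disulfide isomerase genes and 2 endoplasmic reticulum (ER) oxidase genes were followed in Arabidopsis thaliana roots and shoots. The 10 genes were chosen by locus, from 27655 loci measured. The isomerases were PDIL1-1 (AT1G21750), PDIL1-2 (AT1G77510), PDIL1-3 (AT3G54960), PDIL1-4 (AT5G60640), PDIL1-5 (AT1G52260), PDIL2-1 (AT2G47470, UNE5 in the annotation), PDIL2-2 (AT1G04980) and PDIL2-3 (AT2G32920). The oxidases were ERO1 (AT1G72280) and ERO2 (AT2G38960). PDIL1-1, PDIL1-2, PDIL1-5, PDIL2-2 and ERO1 lie on chromosome 1, PDIL2-1, PDIL2-3 and ERO2 on chromosome 2, PDIL1-3 on chromosome 3 and PDIL1-4 on chromosome 5.

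Secreted and membrane proteins acquire their disulfide bonds in the ER. Protein disulfide isomerases pass a disulfide from their own active-site cysteines to a client protein, or rearrange one that joins the wrong cysteines, and the flavoenzyme ERO1 reoxidises the isomerase with molecular oxygen. When unfolded proteins build up, the unfolded protein response raises transcription of many folding genes. In plants it runs through the membrane-anchored transcription factors bZIP17 and bZIP28, which are cut free by proteases, and through bZIP60, whose messenger RNA is spliced by the ER membrane enzyme IRE1.

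Messenger RNA was compared between 5 genotypes in root and in shoot (the aerial part), with 4 libraries in each of the 10 groups. Wild type (wt) was Col-0. The line bz1728 carries T-DNA insertions in BZIP17 (SALK_004048) and BZIP28 (SALK_132285), and nobiro6 is a suppressor mutant in that background. The line nbr6-t1 has an insertion in TAF12B (GABI_172C03) and taf12-t1 an insertion in its paralog TAF12 (WiscDsLoxHs044_12E), both without the bz1728 insertions per the labels. TAF12B and TAF12 encode subunits of the general transcription factor TFIID. All plants were kept at 4 °C for 3 d as seeds and then grown on plates at 22 °C and 65% relative humidity with 16 h of light. The labels give their age as 12 d in one field and as 13 days after sowing in another. Each mutant is represented by 1 line, and nothing in the labels says whether replicates came from separate cultures, so p-values measure the spread between these libraries, which may be technical.

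The smallest library held 2.66 M counts, the median library 4.94 M and the largest 12.9 M. The mutated genes were read first. CPM are counts per 1000000 of a library total adjusted for composition (TMM factors), within each tissue unless stated. BZIP28 stood at 0 counts in every bz1728 library. Yet in libraries labelled nobiro6 it stood at 13.9 ± 3.32 CPM (mean ± SD, n = 4) in root and 26.9 ± 3.26 in shoot. The wt libraries held 71.7 ± 3.77 and 34.5 ± 5.44. BZIP17 was low in both lines, at 5.55 ± 1.15 CPM in bz1728 root and 4.85 ± 1.48 in nobiro6 root against 51.7 ± 2.69 in wt. TAF12B was low in shoot libraries labelled nbr6-t1 (14.2 ± 2.39 CPM against 48.7 ± 5.07 in wt) but not in root (58.8 ± 4.8 against 53.1 ± 5.32). TAF12 was higher in root libraries labelled taf12-t1 (20.6 ± 3.89 CPM against 10.2 ± 0.514 in wt) and lower in shoot (6.97 ± 1.55 against 9.95 ± 0.975, a log2 change of -0.52 ± 0.15 with an adjusted p of 0.0085 in edgeR). All directions below refer to the libraries as labelled. Of 6 root and 6 shoot marker genes, each set was abundant in its own tissue. Shoot markers summed to 148 to 457 TPM (transcripts per 1000000, after division by length) in root libraries and 25100 to 32600 in shoot libraries.

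Upstream sequence is shown first, because 2 of the 10 genes carry, within 250 bases of the annotated transcript start, letters known as binding motifs of unfolded protein response factors. The windows were read from TAIR10.1, written 5′ to 3′ along the gene, with motif letters in capitals. PDIL1-1 (chr1:7645360-7645609, plus strand) holds TGACGTGG, the UPRE letters, on the opposite strand at -205 to -198, and an ERSE on the opposite strand at -187 to -169. The ERSE is CCAAT and CACG separated by 10 bases. PDIL1-2 (chr1:29126398-29126647, plus strand) holds an ERSE on the gene's own strand at -64 to -46.
PDIL1-1: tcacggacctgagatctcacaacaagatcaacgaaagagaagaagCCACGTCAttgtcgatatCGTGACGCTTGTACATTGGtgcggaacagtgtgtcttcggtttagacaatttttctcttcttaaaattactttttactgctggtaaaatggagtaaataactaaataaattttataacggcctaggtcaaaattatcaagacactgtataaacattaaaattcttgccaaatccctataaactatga
PDIL1-2: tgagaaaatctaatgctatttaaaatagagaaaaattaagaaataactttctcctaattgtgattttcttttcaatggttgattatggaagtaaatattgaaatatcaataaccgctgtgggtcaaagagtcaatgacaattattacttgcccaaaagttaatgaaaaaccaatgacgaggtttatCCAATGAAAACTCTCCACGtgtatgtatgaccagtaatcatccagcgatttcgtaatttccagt
Both strands were searched, and the 3 matches in these windows do not overlap each other. Among 27442 windows of the same length, 189 (0.689%) held an ERSE, 354 (1.29%) held TGACGTGG and 17 (0.0619%) held ERSE-II (ATTGG, 1 base, CCACG), and 530 (1.93%) held at least 1 of the motifs. The other 8 windows had no match, including that of ERO1. Of the genes with a match, PDIL1-2 rose and PDIL1-1 fell in the bz1728 root. The part of these motifs in the changes was not tested.

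In wild type the 10 genes formed a pool led by 1 isomerase. On the TPM scale, which divides by transcript length and so allows levels of different genes to be compared, PDIL2-1, an isomerase known for its part in embryo sac function, ranked first in root at 340 ± 25.6 TPM (SD, n = 4). PDIL1-1, with the classical arrangement of a catalytic domain at either end, followed at 240 ± 16.1 TPM, and PDIL1-4, which has an acidic N-terminal extension, at 176 ± 4.62. The levels of PDIL1-3, the close relative of PDIL1-4 with the same layout, and of PDIL2-3, a P5-type isomerase, were 112 ± 12.2 and 102 ± 1.43 TPM, and their libraries overlapped. Then came PDIL1-2 (66.8 ± 6.41 TPM), the close relative of PDIL1-1, PDIL2-2 (39 ± 4.67), the other P5-type isomerase, and ERO2 (21.1 ± 2.23), none of which overlapped its neighbour. PDIL1-5 (11.2 ± 1.9 TPM) and ERO1 (8.41 ± 1.6) closed the order and overlapped each other. In wild-type shoot PDIL2-1 was again first at 85.3 ± 5.82 TPM, PDIL1-4 second at 42.9 ± 1.76 and ERO1 last at 1.61 ± 0.657. PDIL2-1 stood first by mean in all 10 groups.

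All 10 genes were higher in wild-type root than in wild-type shoot, with no overlap between the libraries, in a fit of all 40 libraries with TMM factors. Across all genes tested, 79.0% were called (Benjamini-Hochberg adjusted p under 0.05 in edgeR's quasi-likelihood test), 39.2% higher in root and 39.8% lower. A call by itself, in either direction, was common. Over all genes tested, 73.3% had libraries that did not overlap between the tissues, 36.6% with every root library higher. The median change of the 10 was 1.0 on the log2 scale, against -0.01 over all genes. PDIL1-3 differed most: its CPM, scaled over both tissues, was 138, 127, 106 and 129 in the root libraries and 11, 15.6, 18.9 and 17.6 in the shoot libraries, a log2 difference of 2.97 ± 0.12 (SE, adjusted p 1.8e-26). PDIL1-1 followed at 2.08 ± 0.1 (5.6e-23), PDIL2-2 at 1.43 ± 0.14 (1.2e-12) and ERO1 at 1.25 ± 0.21 (8.2e-07). PDIL1-2 (1.02 ± 0.14), PDIL1-4 (0.97 ± 0.06), PDIL2-1 (0.94 ± 0.07), ERO2 (0.75 ± 0.12) and PDIL2-3 (0.59 ± 0.08) were all called in edgeR. PDIL1-5 differed least, at 0.42 ± 0.16 (adjusted p 0.016), and was not called without wt root library 2 (0.30, adjusted p 0.12). TPM is not corrected for library composition: on that scale the median of all genes itself was higher in root, by 0.93, so TPM is not compared between the tissues. In whole organs, fewer cells that express a gene and less of its RNA per cell cannot be told apart.

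**Figure D1:**
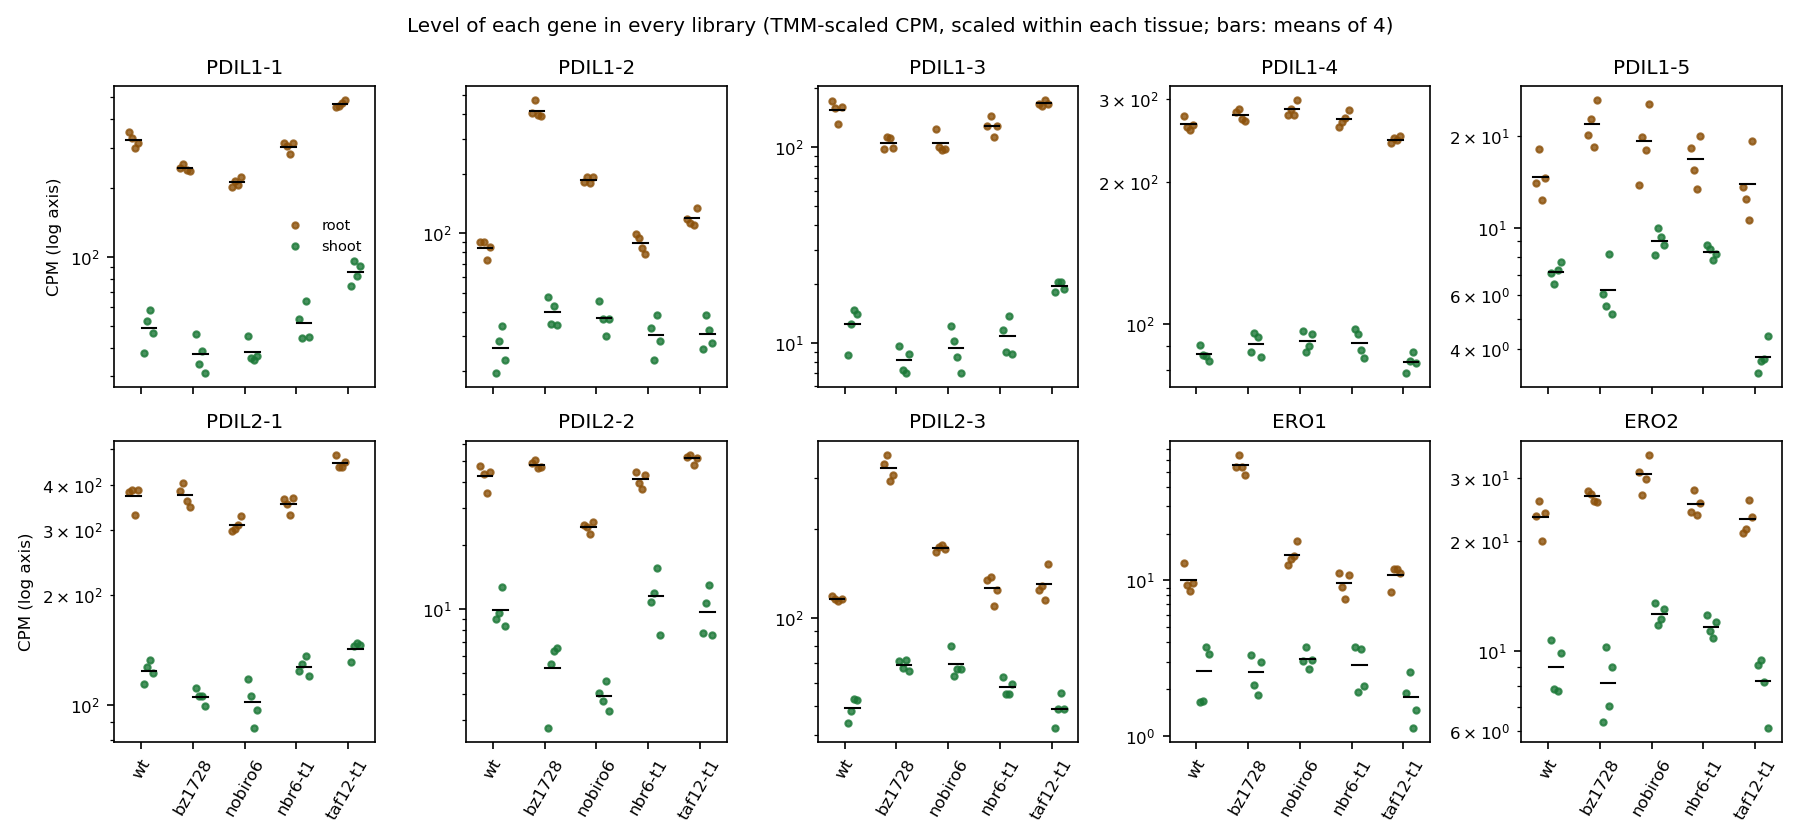
TMM-scaled CPM (log axis, a separate range in each panel) of the 10 genes in all 40 libraries, by genotype, with root in brown and shoot in green, and a bar at the mean of 4 libraries. Root and shoot were scaled separately; ERO1 stands at 48 to 64.7 CPM in bz1728 root, above the 7.62 to 17.9 CPM of every other root library.

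In the bz1728 root 1 oxidase and 3 isomerases rose, and 2 isomerases fell. The comparison asks what the genes do in the line with insertions in BZIP17 and BZIP28. Of all genes tested, 38.9% were called, against 6 of the 10. The median change of the 10 was 0.18 on the log2 scale and that of all genes 0.02. Libraries did not overlap between the lines for 6 of the 10 genes, the same 6 that were called, against 36.2% of all genes tested.

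ERO1, which supplies oxidising equivalents to the isomerases, was at 13, 9.3, 8.57 and 9.57 CPM in the wt root libraries and at 53.7, 64.7, 53.9 and 48 in bz1728. Every bz1728 library exceeded every wt library by more than the spread within either group. The log2 change was 2.48 ± 0.13 (adjusted p 1.7e-17), or 5.59-fold. Its homologue ERO2 was at 23.3 ± 2.39 CPM in wt and 26.6 ± 0.922 in bz1728, the libraries overlapped, and the change of 0.18 ± 0.1 was not called (adjusted p 0.16).

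PDIL1-2 moved almost as far as ERO1. Its wt root libraries held 89.8, 89.8, 72.7 and 84.8 CPM and the bz1728 libraries 405, 473, 396 and 391, a change of 2.3 ± 0.08 (adjusted p 8.9e-23). PDIL2-3 was at 119, 116, 114 and 116 CPM in wt and 333, 359, 292 and 306 in bz1728, a change of 1.47 ± 0.07 (1.1e-17). For both genes the groups stood far apart. PDIL1-5, at the low end of the family, rose from 14.7 ± 2.43 to 21.9 ± 3.44 CPM (0.53 ± 0.16, adjusted p 0.0084), with the lowest bz1728 library at 18.4 and the highest wt library at 18.1.

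PDIL1-1 fell from 352, 332, 300 and 315 CPM in wt root to 245, 254, 239 and 237 in bz1728 (-0.41 ± 0.06, adjusted p 9e-07). PDIL1-3 fell from 172, 158, 131 and 160 CPM to 98.2, 113, 111 and 99.2 (-0.56 ± 0.08, 8.3e-07). Neither pair of groups overlapped. PDIL1-4 (0.07 ± 0.05), PDIL2-1 (0.01 ± 0.06) and PDIL2-2 (0.18 ± 0.08) were not called, with adjusted p of 0.34, 0.93 and 0.094. PDIL1-1 and PDIL1-2 are close paralogs, and they changed in opposite directions. Few of their 31-base words also occur in other loci (18 of 1974 in PDIL1-1, 12 of 1858 in PDIL1-2). For each gene those loci are its paralog and AT3G62510. Of PDIL2-1, 67 of 1637 words (4.09%) also occur in AT2G47480, which overlaps it by 97 exonic bases on the opposite strand, and reads from the 2 loci may not be fully separated there.

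The pool differed between the lines in size and in makeup. The 10 genes summed to 1170, 1150, 1010 and 1130 TPM in the wt root libraries and 1550, 1670, 1470 and 1430 in bz1728, groups that did not overlap. PDIL1-2 made up 5.97 ± 0.223% of the sum in wt and 21.6 ± 0.7% in bz1728, and PDIL2-3 9.12 ± 0.484% and 18.4 ± 0.709%. PDIL1-1 went the other way, from 21.5 ± 0.627% to 11.9 ± 0.372%. In bz1728 root PDIL2-1 (344 ± 26 TPM), PDIL1-2 (331 ± 31.6) and PDIL2-3 (283 ± 27.2) were neighbours whose libraries overlapped, where wt had PDIL1-2 in the sixth place. ERO1, last in wt, was in the seventh place at 46 ± 6.07 TPM. The 2 oxidases together held 29.6 ± 3.0 TPM in wt and 70.3 ± 6.73 in bz1728.

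**Figure D2:**
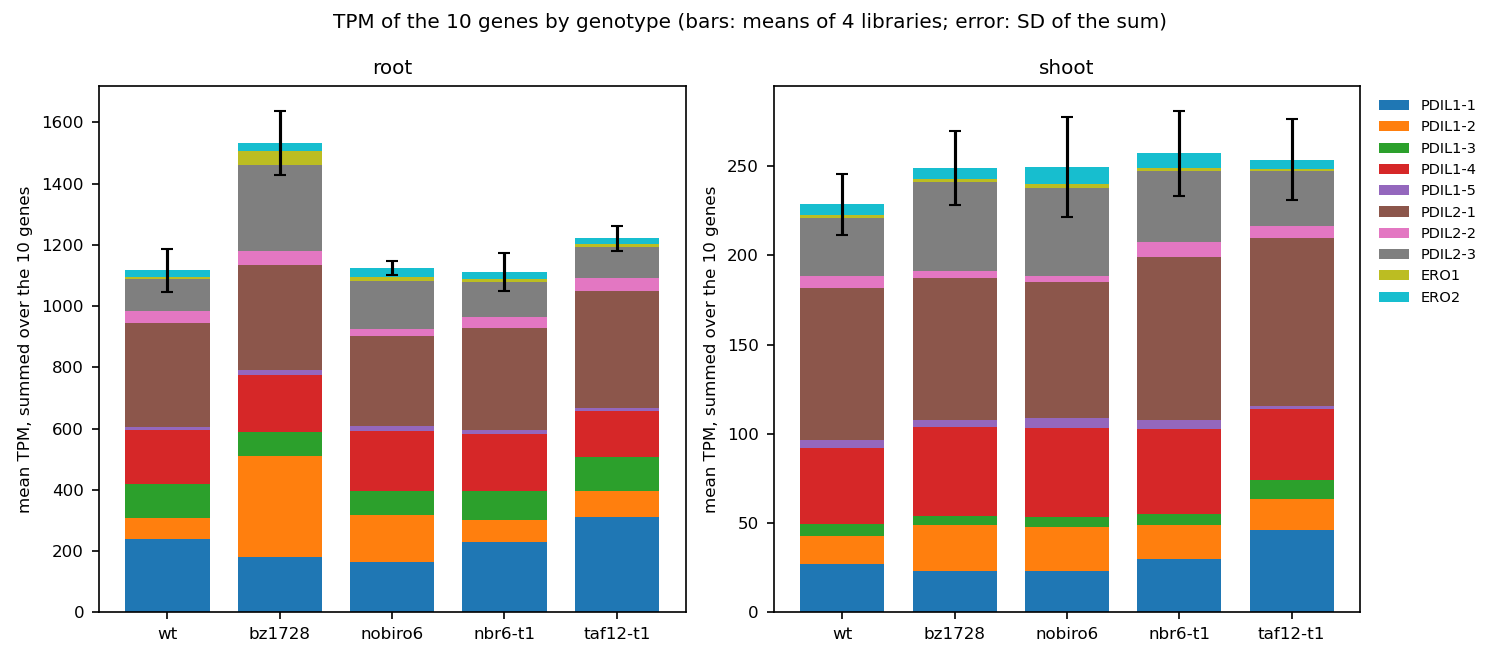
Mean TPM of each gene, stacked to the sum of the 10, by genotype (bars, n = 4; error bars, SD of the sum), with separate axes for root and shoot. The root bar of bz1728 is the tallest at 1530 TPM, and in it PDIL1-2 (orange) and PDIL2-3 (grey) are the segments that widened most against wt.

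The marker sums differed between root groups as well: shoot markers summed to 334 to 348 TPM in wt root libraries, 148 to 270 in bz1728, 228 to 307 in nobiro6, 409 to 457 in nbr6-t1 and 149 to 228 in taf12-t1. Root markers summed to 7140 to 7450 TPM in wt root libraries, 5310 to 6630 in bz1728, 4510 to 5250 in nobiro6, 5070 to 6630 in nbr6-t1 and 6300 to 7130 in taf12-t1. Single root markers moved in both directions: PRP3, a root hair cell wall gene, was at 169 ± 11.1 CPM in wt root and 581 ± 116 in bz1728, and GPAT5, a suberin synthesis gene, at 42.3 ± 4.67 and 14.3 ± 1.99. Most of the root marker sum came from BGLU23. Over all root libraries it had a median of 5210 TPM and the sum a median of 6040. FAMA, a guard cell lineage gene, was at a median of 0 in root libraries. The part of tissue makeup in the root differences was not tested.

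Other genes of the ER did not all follow one direction. In bz1728 root against wt, 18.2% of all genes tested were called higher and 20.7% lower. Of 8 further oxidative folding genes (PDIL1-6, PDIL5-1 to PDIL5-4, the sulfhydryl oxidases QSOX1 and QSOX2, and the thiol peroxidase GPX3), only PDIL1-6 was called in bz1728 root against wt (0.37 ± 0.08, adjusted p 0.00023). Of 15 chaperone, lectin and co-chaperone genes of the ER, 2 were higher and 10 lower, with a median of -0.34. The 2 higher were the HSP70 gene BIP3, which had 0 counts in all 4 wt libraries and 11.2 to 21.4 CPM in bz1728, and the J-domain co-chaperone gene ERDJ3A (3.26 ± 0.13). SDF2, an ER quality-control protein that works with ERDJ3B, fell by 0.93 ± 0.08 and the J-domain gene ERDJ3B by 1.07 ± 0.07. The level of BZIP60, the gene of the IRE1-spliced factor, went from 38.8 ± 2.39 CPM in root of wt to 147 ± 9.11 in that of bz1728, with 91.1 ± 3.86 in that of nobiro6. Splicing is not visible in these values.

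In the bz1728 shoot 2 isomerases rose and 3 fell, and neither oxidase was called. The background was 17.8% of genes called, against 5 of the 10. PDIL2-3 was at 44, 48.2, 52.8 and 52.6 CPM in wt and 71.2, 67.4, 71.9 and 66 in bz1728, without overlap (0.48 ± 0.09, adjusted p 0.00034). PDIL1-2 rose from 26.2 ± 6.34 to 39.9 ± 6.48 CPM (0.59 ± 0.18, adjusted p 0.029). PDIL2-2, not called in root, fell from 8.97, 9.61, 12.8 and 8.36 CPM to 2.76, 5.54, 6.33 and 6.6 (-0.87 ± 0.23, 0.0096). PDIL1-3 fell by 0.64 ± 0.18 (0.016), with overlap between the groups, and PDIL2-1 by 0.24 ± 0.08 (0.033).

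PDIL2-3 and PDIL2-2 were called whichever library was left out. PDIL1-2 was not called without wt 1, wt 4, bz1728 1 or bz1728 3 (0.47 to 0.55). PDIL1-3 was not called without wt 3, bz1728 2 or bz1728 3, nor by limma on log2(TPM + 1) (-0.58 to -0.39), and PDIL2-1 not without wt 2, wt 3, bz1728 2, bz1728 3 or bz1728 4, nor by limma (-0.23 to -0.10). PDIL1-1 missed the threshold at -0.40 ± 0.14 (0.059) and passed it without wt 1 or bz1728 1 (-0.50 to -0.48). On the TPM scale used with limma the median of all genes moved up by 0.12 in this comparison. ERO1 held 13 to 47 counts per wt shoot library and 10 to 15 per bz1728 library, so its change of -0.07 ± 0.33 (adjusted p 0.91) has a wide error.

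The log2 change in root minus that in shoot was called positive for 6 of the 10 genes by the test of the difference itself. This test came from the fit of 40 libraries, where 23.0% of genes were called. The difference is signed, and for PDIL2-2 and PDIL2-1 the larger change was a fall in shoot. They changed by -0.87 and -0.24 in shoot, and by 0.18 and 0.01, not called, in root. The median difference of the 10 was 0.55 and that of all genes 0.04. ERO1 had the largest, 2.62 ± 0.32 (adjusted p 2.7e-08), followed by PDIL1-2 (1.76 ± 0.19, 1.5e-08), PDIL2-2 (1.08 ± 0.23, 0.00033) and PDIL2-3 (1.03 ± 0.12, 9.7e-09). PDIL1-5 was called at 0.74 ± 0.24 (0.02), though not without bz1728 shoot 4 (0.66). PDIL2-1 at 0.29 ± 0.1 (0.033) was not called with RLE factors, DESeq2, limma or only the groups compared, or without wt shoot 3, wt root 3, bz1728 shoot 2, bz1728 shoot 4, bz1728 root 1 or bz1728 root 2 (0.11 to 0.29). PDIL1-1 and PDIL1-3, lower in bz1728 root, were not called in this test.

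**Figure D3:**
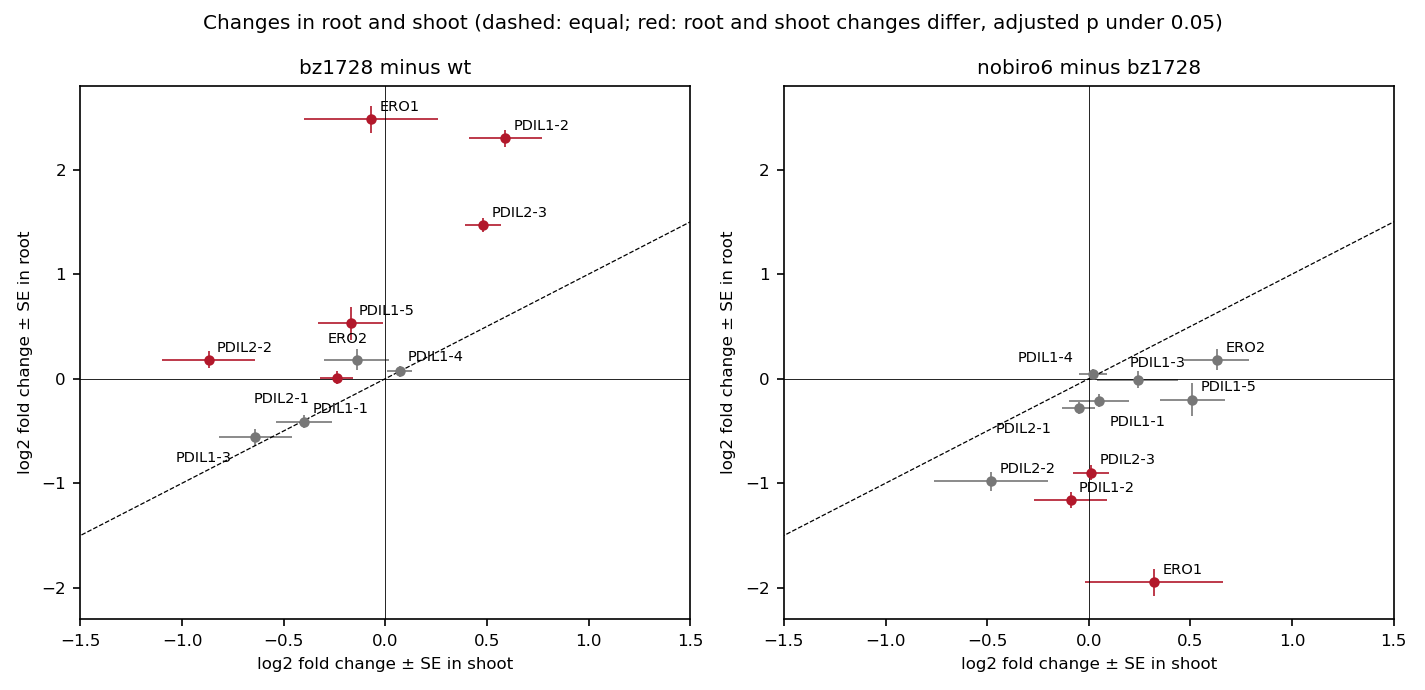
Log2 fold change ± SE in shoot (horizontal) and root (vertical) for bz1728 against wt (left) and nobiro6 against bz1728 (right), with a dashed line where both are equal. Red marks genes whose root and shoot changes differed, 6 on the left and 3 on the right, with ERO1 farthest from the line in both panels.

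In nobiro6 root against bz1728 root, 1 oxidase and 5 isomerases fell and none rose, where 31.7% of genes were called. The libraries compared differ also in BZIP28, at 0 counts in bz1728 and above 0 in nobiro6. The median of the 10 was -0.24, against 0.03 over all genes. ERO1 fell from 48 to 64.7 CPM in bz1728 to 12.6, 13.7, 14.3 and 17.9 in nobiro6 (-1.95 ± 0.13, adjusted p 3.1e-14). PDIL1-2 fell to 182, 192, 180 and 192 CPM (-1.16 ± 0.08, 1.7e-14) and PDIL2-3 to 168, 174, 177 and 172 (-0.90 ± 0.07, 6.6e-12). These 3 genes moved from the bz1728 level towards that of wt, and no nobiro6 library overlapped a bz1728 library. Libraries did not overlap for 6 of the 10 genes, against 28.2% of all genes tested.

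PDIL2-2 fell from 49, 50.3, 46.2 and 46.9 CPM in bz1728 to 25, 24.5, 22.7 and 25.8 in nobiro6 (-0.98 ± 0.09, 2.7e-10), to below the 35.3 to 47.3 CPM of the wt libraries. PDIL2-1 fell by 0.28 ± 0.06 (0.0009) and PDIL1-1 by 0.21 ± 0.06 (0.0099), without overlap. For PDIL1-1 the limma fit on TPM gave -0.15 with an adjusted p of 0.051. PDIL1-3 (-0.01 ± 0.08), PDIL1-4 (0.04 ± 0.05), PDIL1-5 (-0.20 ± 0.16) and ERO2 (0.18 ± 0.1) were not called. ERO2 was called by limma at 0.24 (0.047).

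Against wt root, 4 of the 10 were higher in nobiro6 and 4 lower, with 42.8% of genes called. This comparison shares its libraries with those above. PDIL1-2 was 1.14 ± 0.08 higher (adjusted p 6.4e-14), PDIL2-3 0.57 ± 0.08 (1.8e-07), ERO1 0.54 ± 0.16 (0.0057) and ERO2 0.36 ± 0.1 (0.0049). The ERO1 libraries of nobiro6 and wt overlapped, at 12.6 to 17.9 and 8.57 to 13 CPM. PDIL2-2 was 0.81 ± 0.1 lower in nobiro6 than in wt (1.4e-08), PDIL1-1 0.62 ± 0.06 lower (3.5e-10), PDIL1-3 0.56 ± 0.08 (9.7e-07) and PDIL2-1 0.27 ± 0.06 (0.00092). PDIL1-5 was not called at 0.34 ± 0.17 (0.11) but was without wt 2 or nobiro6 1 (0.45 to 0.47). PDIL1-4 was not called at 0.10 ± 0.05 (0.13), although its libraries did not overlap, and limma called it (0.16). The sum of the 10 in nobiro6 root was 1110, 1140, 1100 and 1150 TPM, within the wt range, while PDIL1-2 held 13.7 ± 0.348% of it, between its shares in wt and bz1728.

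In nobiro6 root against bz1728, 12.8% of all genes tested were called higher and 18.9% lower. Of the 8 other oxidative folding genes 4 rose there and none fell, where 6 members fell. They were PDIL5-2 (0.37 ± 0.09), PDIL5-3 (0.39 ± 0.11), PDIL5-4 (0.36 ± 0.08) and QSOX2 (0.30 ± 0.08). Of the 15 other ER folding genes 2 rose, the calreticulin genes CRT1a (0.25 ± 0.07) and CRT3 (0.58 ± 0.08), and 7 fell, among them BIP2 (-0.58 ± 0.07) and ERDJ3A (-1.31 ± 0.11).

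In nobiro6 shoot, ERO2 and PDIL1-5 rose against bz1728 and no member fell, with 21.0% of genes called. ERO2 was at 6.35, 10.2, 7.03 and 9 CPM in bz1728 and 13.5, 11.8, 12.2 and 13 in nobiro6, without overlap (0.63 ± 0.16, adjusted p 0.0071). PDIL1-5 rose by 0.51 ± 0.16 (0.027), and was not called by DESeq2, with only the groups compared, or without bz1728 1, 2 or 4 or nobiro6 2 or 3 (0.43 to 0.51). PDIL1-2 (-0.09 ± 0.18), PDIL2-3 (0.01 ± 0.09), PDIL2-2 (-0.48 ± 0.28) and ERO1 (0.32 ± 0.34) were not called. The nobiro6 change in root was more negative than in shoot for ERO1 (difference -2.23 ± 0.34, 8.3e-06), PDIL1-2 (-1.04 ± 0.19, 0.00024) and PDIL2-3 (-0.87 ± 0.12, 9.8e-07), where 15.8% of genes were called. PDIL1-5 at -0.65 ± 0.25 (0.066) was called with RLE factors, by limma, or without bz1728 shoot 3, bz1728 root 3 or nobiro6 root 4 (-0.85 to -0.59).

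Against wt shoot, nobiro6 had ERO2 and PDIL2-3 higher and PDIL2-2 and PDIL2-1 lower, with 12.1% of genes called. PDIL2-2 was at 4.05, 3.71, 4.57 and 3.3 CPM, each below the wt range of 8.36 to 12.8 (-1.35 ± 0.25, adjusted p 0.00047). PDIL2-3 was 0.49 ± 0.09 higher (0.00031). ERO2 at 0.50 ± 0.15 (0.033) was not called with only the groups compared or without wt 2, wt 3, nobiro6 1, 3 or 4 (0.42 to 0.51), and PDIL2-1 at -0.29 ± 0.08 (0.016) not with only the groups compared, by limma, or without wt 3, nobiro6 3 or nobiro6 4 (-0.29 to -0.17). PDIL1-2, at 0.50 ± 0.18 (0.079), was called by DESeq2, by limma and without wt 3 (0.52 to 0.66). PDIL1-1 and PDIL1-3, not called at -0.35 ± 0.14 and -0.39 ± 0.18, were called without wt 1, at -0.45 and -0.53. The limma fit also called PDIL1-4 and PDIL1-5 higher; on its scale the median of all genes moved up by 0.11.

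In nbr6-t1 root 1 of the 10 genes was called against wt, where 20.5% of genes were called. PDIL1-3 was at 129, 144, 113 and 128 CPM against 172, 158, 131 and 160 in wt, with overlap (-0.27 ± 0.08, adjusted p 0.017), and was not called without wt 1 or wt 4 or by limma (-0.25 to -0.22). The other 9 ranged from -0.10 (PDIL1-1) to 0.15 (PDIL1-5). ERO1 was at 9.67 ± 1.65 CPM and PDIL1-2 at 88.7 ± 9.03. In nbr6-t1 shoot edgeR called none of the 10, where 7.50% of genes were called. The changes ran from -0.22 ± 0.17 (PDIL1-3) to 0.38 ± 0.15 (ERO2), 2 genes passed an unadjusted p under 0.05, and DESeq2 and limma called 0. ERO2, PDIL1-5 and PDIL2-3 did not overlap with wt shoot in their libraries, as held for 13.5% of all genes tested, yet the adjusted p was 0.14, 0.42 and 0.10. Between root and shoot the nbr6-t1 changes were called for none of the 10 in edgeR, DESeq2 or limma (0 at an unadjusted p under 0.05), with 2.40% of genes called.

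The root change in nobiro6 against bz1728 was more negative than that in nbr6-t1 against wt for 4 genes, by the test of the difference over 4 separate groups, with 11.0% of genes called. The difference was -1.91 ± 0.21 for ERO1 (adjusted p 6.5e-08), -1.24 ± 0.11 for PDIL1-2 (4.2e-10), -1.02 ± 0.11 for PDIL2-3 (1.8e-08) and -0.92 ± 0.13 for PDIL2-2 (4.6e-06). All 4 calls held without any 1 library. In the shoot edgeR called none of the 10 in this test (0 at an unadjusted p under 0.05, 0 in DESeq2 and limma), with 1.27% of genes called. TAF12B stood at 26.2 ± 2.56 CPM in nobiro6 root and, as given above, was not lower in nbr6-t1 root than in wt, and its part in these differences was not tested.

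**Figure D4:**
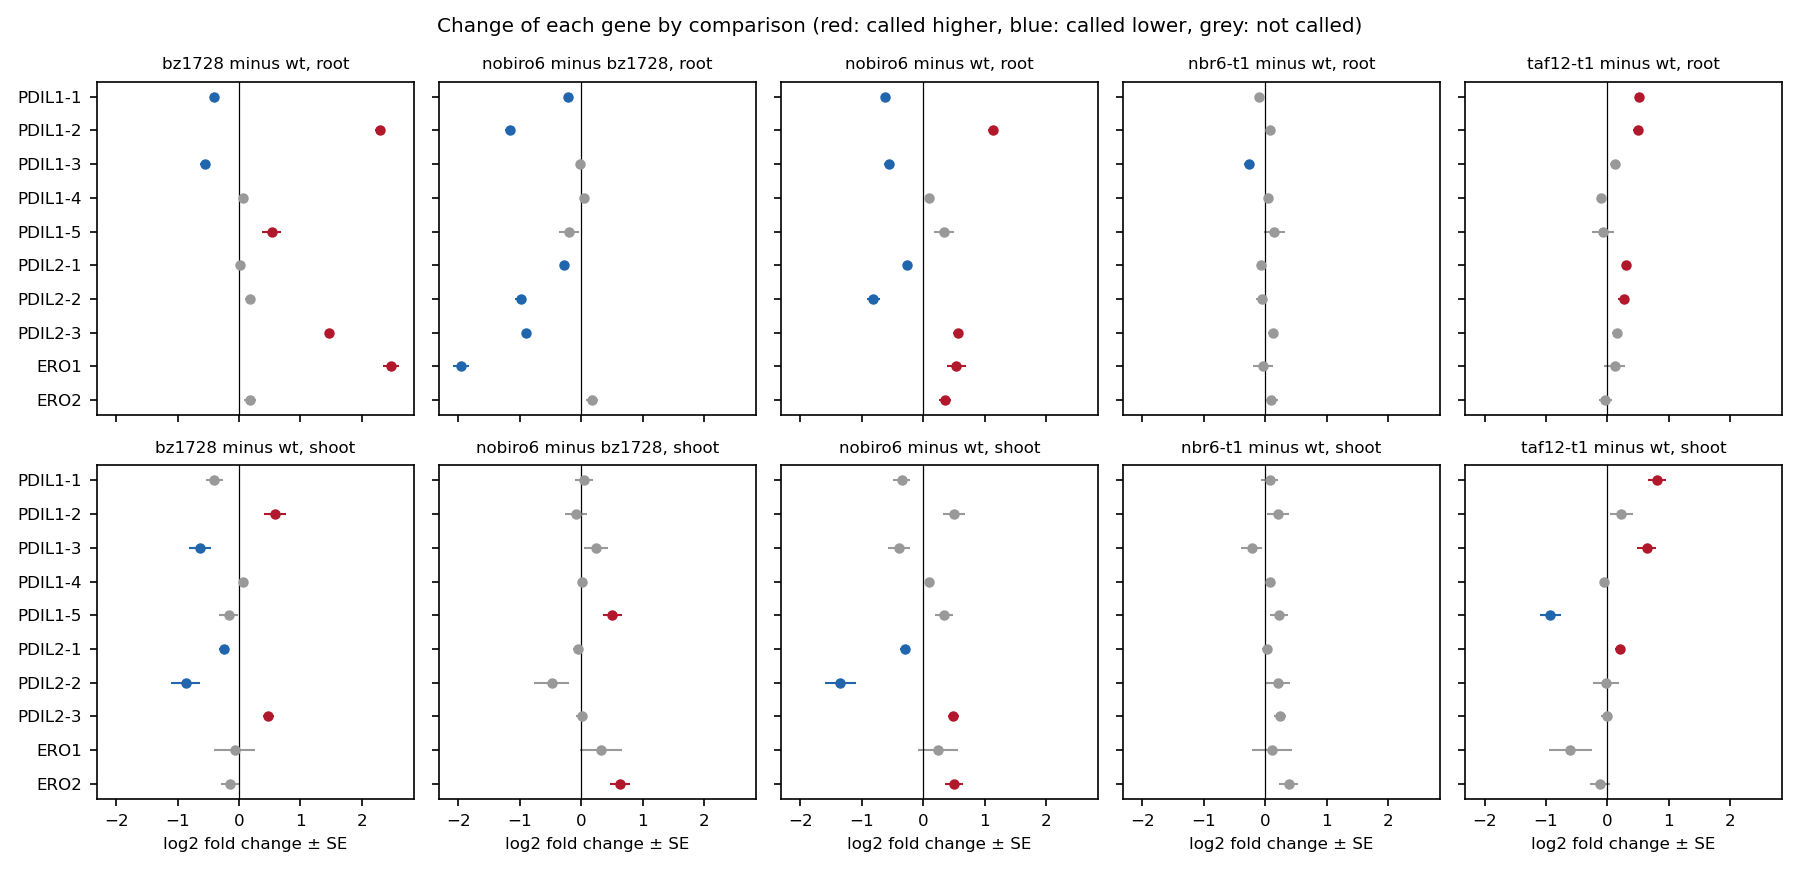
Log2 fold change ± SE of each gene in 5 comparisons in root (top) and shoot (bottom), with red for called higher, blue for called lower and grey for not called. The nbr6-t1 panels stay within -0.27 to 0.38. ERO1, PDIL1-2 and PDIL2-3 are far right in bz1728 root and left of 0 in the root panel of nobiro6 against bz1728.

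In taf12-t1 root 4 isomerases rose and no member fell, where 39.2% of genes were called, a share close to that of the members. PDIL1-1 was at 450, 454, 468 and 486 CPM, above every wt library (0.52 ± 0.06, adjusted p 2e-08). PDIL1-2 stood at 118, 112, 110 and 134 CPM against at most 89.8 in wt (0.50 ± 0.08, 9e-06). PDIL2-1 rose by 0.30 ± 0.06 (0.00022) and PDIL2-2 by 0.27 ± 0.09 (0.013), the last not called without wt 3 or by limma (0.13 to 0.19). ERO1 (0.12 ± 0.17) and ERO2 (-0.03 ± 0.11) were not called, and PDIL1-1 rose here where it fell in bz1728. PDIL2-3 was not called at 0.16 ± 0.08 but was without taf12-t1 3 (0.22), and PDIL1-4, at -0.11 ± 0.06 with no overlap, was called lower by limma (-0.24), on whose TPM scale the median of all genes moved by -0.13. Of the 15 other ER folding genes 13 rose and none fell, with a median of 0.45.

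In taf12-t1 shoot 3 isomerases rose and 1 fell, where 40.6% of genes were called, a share close to that of the members. PDIL1-1 was at 74.5, 95.7, 82 and 91.5 CPM against 38.1 to 58.6 in wt (0.81 ± 0.14, adjusted p 7.3e-05). PDIL1-3 was at 18.3, 20.6, 20.5 and 18.9 CPM against 8.71 to 14.8 (0.64 ± 0.16, 0.003). PDIL1-5 fell from 7.07, 6.52, 7.27 and 7.69 CPM to 3.33, 3.64, 3.69 and 4.41 (-0.93 ± 0.17, 0.00012). Of the 10 genes only these 3 had libraries that did not overlap between the groups, against 36.7% of all genes tested. PDIL2-1, with overlap, was called at 0.20 ± 0.08 (0.043), but not without the filter on low counts, by limma, or without wt 1, 2 or 4 or taf12-t1 2, 3 or 4 (0.14 to 0.21). ERO1 was at 1.76 ± 0.622 CPM on 6 to 12 counts per library and was not called (-0.60 ± 0.35, 0.18). Root markers summed to 399 to 541 TPM in these shoot libraries and 163 to 397 in wt shoot. Nearly all of the sum in shoot comes from 1 gene. Over all shoot libraries BGLU23 had a median of 172 TPM and the sum a median of 173. The other root markers each had a median of at most 0.206 TPM there. The part of these markers in the differences was not tested.

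PDIL1-5 and PDIL1-3 differed between root and shoot in taf12-t1, where 20.3% of genes were called, a share close to that of the members. The difference was 0.88 ± 0.27 for PDIL1-5 (adjusted p 0.014), not called without taf12-t1 root 4 or by limma (0.51 to 0.65). It was -0.49 ± 0.17 for PDIL1-3 (0.034), not called without wt shoot 1, wt shoot 2, wt root 1, wt root 4, taf12-t1 shoot 2, taf12-t1 shoot 3 or taf12-t1 root 2 (-0.48 to -0.36). PDIL1-1 was not called, except without wt shoot 3 (-0.38).

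Over the 10 group means, ERO1 had the widest span of the members, 4.1 on the log2 scale, then PDIL1-3 (3.71) and PDIL1-2 (3.35), and PDIL1-4 the narrowest (1.17). As a description over these 10 groups, profiles were compared by the root mean square difference of their centred log2 CPM among 7385 genes with a symbol that were tested in both tissues. ERO1 and PDIL1-2 were closer to each other (0.309) than to any of these genes outside the 10. The nearest outside genes were TRM28 (0.407), BI1 (0.413), which encodes the ER membrane cell-death suppressor BAX inhibitor 1, and UGT85A2 (0.452) for ERO1. For PDIL1-2 they were BI1 (0.317), PLDALPHA3 (0.389) and OCT4 (0.397). PDIL1-3 was nearest to B120 (0.209), PAP8 (0.235) and PLAT2 (0.238), and farther from its nearest member PDIL1-1 (0.459).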

How the data were processed

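Transcript abundance was measured by mRNA-seq in 40 libraries, 20 of root and 20 of shoot. Reads were trimmed with Trimmomatic 0.39 and quantified with kallisto 0.44.0, per the submitters' processing notes; the index build is not given in the sources used here. The deposited expected counts are kallisto estimates per transcript, with no depth scaling. The deposited TPM divides by transcript length and scales each library to the same total. Each table lists 1 transcript for each of 27655 loci, and the deposited length equals that of a TAIR10.1 transcript for 27443 of the 27445 loci found there. That annotation gave symbols (10375 loci), exon overlaps, shared words of 31 bases and 250-base upstream windows; the windows were read from the genome because no promoter table was given, and proteins were not analysed here.

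Expected counts were rounded and fitted in edgeR 4.0.16 (R 4.3.3) with TMM factors, filterByExpr (count 10, total 15) and robust quasi-likelihood F-tests, two-sided. Root and shoot had a fit each, with all 5 genotypes in it, and root minus shoot contrasts came from a fit of all 40 libraries. P-values were adjusted (Benjamini-Hochberg) over all genes tested, 18745 in root, 17382 in shoot and 20015 in the fit of both, and under 0.05 was called. All 10 members passed the filter in both tissues. SE was approximated from the log2 change and its F statistic. The tests were checked on simulated data. Library totals had a median of 4.46 M counts in root and 5.08 M in shoot, and the biological coefficient of variation was 0.0811 and 0.119. Alternatives were RLE factors, no filter, DESeq2 1.42.0, only the groups compared, a replicate block, limma 3.58.1 on log2(TPM + 1) and each library left out. Comparisons that share a group share its error.

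The members and the gene lists were chosen with earlier results of these data known. Genes outside the 10 were named from these lists, from the mutated and marker genes, or as the 3 closest profiles to each of the 3 members with the widest span.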

Additional observations from a re-analysis of the deposited data

Results flagged for a closer look

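In 100 sets of 4 libraries (each gene in each group), a Dixon test at 95% marked 4 where 1 library stood apart; chance marks about 1 set in 20. These were PDIL2-1 in wt root, where 1 library was at 331 CPM and the others at 382 to 387, and PDIL1-2 in bz1728 root (473 CPM against 391 to 405). The others were PDIL1-3 in nobiro6 root (124 CPM against 96.6 to 99.9) and PDIL1-1 in nobiro6 shoot (45.2 CPM against 35.3 to 36.9).

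Of 60 tests of a difference between 2 changes, 15 passed an adjusted p under 0.05 in edgeR. For bz1728 against wt, the log2 change in root minus that in shoot was 2.62 for ERO1, 1.76 for PDIL1-2, 1.08 for PDIL2-2, 1.03 for PDIL2-3, 0.74 for PDIL1-5 and 0.29 for PDIL2-1. For nobiro6 against bz1728, the root minus shoot difference was -2.23 for ERO1, -1.04 for PDIL1-2 and -0.87 for PDIL2-3. For taf12-t1 against wt it was 0.88 for PDIL1-5 and -0.49 for PDIL1-3. In root, the change of nobiro6 against bz1728 minus that of nbr6-t1 against wt was -1.91 for ERO1, -1.24 for PDIL1-2, -1.02 for PDIL2-3 and -0.92 for PDIL2-2.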

How the results depend on the processing

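Of 170 member values 65 were called, 50 of them under every setting, and 0 of the 65 changed sign; of 1830 alternative values of uncalled results, 93 had the other sign. The limma fit on log2(TPM + 1), which has no composition scaling, called 1 member higher in nobiro6 against bz1728 root (main 0), 0 lower in nbr6-t1 root (1), 1 lower in taf12-t1 root (0), 1 lower in bz1728 shoot (3), and 5 higher and 1 lower in nobiro6 against wt shoot (2 and 2). For the root minus shoot difference it called 765 genes in nbr6-t1 (481) and 0 members higher in taf12-t1 (1). DESeq2 called 464 genes in the shoot test of nobiro6 against nbr6-t1 changes (221) and 1 member higher in nobiro6 against bz1728 shoot (2), and fits of only the groups compared called 1 there (2), and 1 higher and 1 lower in nobiro6 against wt shoot (2 and 2). The cause of these shifts was not tested. With 1 library left out, member counts ran from 1 to 2 higher and 1 to 4 lower in bz1728 shoot, 0 to 1 lower in nbr6-t1 root, 1 to 2 higher in nobiro6 against bz1728 shoot, 1 to 2 higher and 1 to 4 lower in nobiro6 against wt shoot, and 0 to 1 higher and 0 to 2 lower for taf12-t1 root minus shoot. The 221 genes ran from 118 (without nbr6-t1 shoot 2) to 367 (without nobiro6 shoot 3).

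On the TPM scale the median of all genes moved by -0.13 in taf12-t1 root, 0.12 in bz1728 shoot, 0.11 in nobiro6 against wt shoot, 0.94 in wt root against shoot, and, for root minus shoot, -0.15 in bz1728 and -0.10 in taf12-t1. The share of all called genes that were higher went there from 49.6 to 25.7%, 47.1 to 78.1%, 30.2 to 67.7%, 49.7 to 80.0%, 52.5 to 29.9% and 48.2 to 30.1%. It also went from 20.8 to 37.4% in nbr6-t1 shoot, from 43.0 to 53.4% with DESeq2 and 22.5% with limma in the shoot test of nobiro6 against nbr6-t1 changes, from 55.2 to 44.7% with DESeq2 for nobiro6 against bz1728 root minus shoot, and from 73.8 to 49.9% with RLE factors, 50.4% with DESeq2 and 36.9% with limma for nbr6-t1 root minus shoot.

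Replicate numbers were not treated as pairs, since not every pair's residual correlation was over 0.1: same-numbered libraries of different genotypes correlated at -0.083 to 0.099 in root (0 of 40 over 0.1) and -0.33 to 0.28 in shoot (7 of 40). As a hint from the data, not the design, 10 of 20 root and 3 of 20 shoot libraries correlated best with their own number. With a replicate block the called genes went from 7290 to 7376 in bz1728 root and from 3098 to 2986 in bz1728 shoot; 2 member calls changed, PDIL1-5 in nobiro6 against wt root (0.37, adjusted p 0.035) and PDIL2-1 in taf12-t1 shoot (0.20, adjusted p 0.054), and no other. Depth limits ERO1, PDIL1-5 and PDIL2-2 in shoot, where counts ran from 6 to 162 per library.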
